A study of Mus musculus with 8 samples.

Results

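The genes described here are the 3 TGF-beta ligands Tgfb1, Tgfb2 and Tgfb3, the 3 receptors Tgfbr1, Tgfbr2 and Tgfbr3, and the 4 latent TGF-beta binding protein genes Ltbp1, Ltbp2, Ltbp3 and Ltbp4 of the mouse. They were chosen by gene name. They are 10 of the 35896 genes in the deposited table, and all 10 were among the 17182 genes with enough counts to be tested. Total RNA of a part of the aorta was sequenced after removal of ribosomal RNA in 8 libraries, each pooled from 2 of 16 male C57BL6 mice. In the AngII group, angiotensin II, a peptide hormone that raises blood pressure, had been infused by osmotic minipump at 2.8 mg/kg/day for 2 weeks from 11 weeks of age, and the aorta was taken at the end of the infusion. For AngII+2W and AngII+3W the same infusion was followed by 2 and 3 weeks without the hormone. The CTRL group were untreated littermates of matched age. Each group had 2 libraries, so that every comparison was of 2 libraries with 2, and the question was whether genes of this pathway differed from CTRL while the hormone was given and after it was withdrawn.

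TGF-beta ligands are secreted as inactive complexes. The mature ligand stays bound to its own propeptide, the propeptide is linked to a latent TGF-beta binding protein, and that protein ties the complex to fibrillin and fibronectin in the matrix until integrins, proteases or thrombospondin release the ligand. Tgfbr2 binds the free ligand and recruits Tgfbr1, whose kinase phosphorylates Smad proteins that then act in the nucleus, and Tgfbr3 (betaglycan) is a co-receptor that presents Tgfb2 in particular. Ltbp2 is the exception in its family, since it is a matrix protein that does not bind latent TGF-beta. In the aortic wall the pathway is known for its part in the synthesis of collagen and elastic fibres and in inherited aneurysm, and mutations of Tgfb2, Tgfb3, Tgfbr1, Tgfbr2 and Ltbp3 are among the known causes of aortic disease.

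The total count per library was 18130441 to 21498200. A count of 3 corresponded to 0.140 to 0.165 CPM (counts per 1000000 counts of the library), and every member lay far above that level in every library. The tissue held more than the vessel wall, as shown by cell type markers. The summed CPM of 8 smooth muscle markers was 7795 to 9897 in CTRL, 1855 to 2281 in AngII, 3745 to 4137 in AngII+2W and 1969 to 3460 in AngII+3W, and 6 of the 8 were lower than CTRL in AngII at a false discovery rate (FDR) below 0.05. The sum of 8 macrophage markers was 179.9 to 260.0 in CTRL, 537.4 to 783.5 in AngII, 246.6 to 308.5 in AngII+2W and 152.2 to 292.6 in AngII+3W, and 5 of the 8 were higher than CTRL in AngII. The sum of 8 fibroblast markers was 1452 to 1927 in CTRL and 1859 to 2391 in AngII, most of it from Gsn, and overlapped between all groups, but 2 of the 8 were higher than CTRL in AngII and none lower, with a median log2 fold change of 0.79. The fibroblast markers Lum and Dpt, named after their values were seen, were at 37.2 and 21.4 CPM and at 90.7 and 54.1 CPM in CTRL, and at 204.2 and 234.2 CPM and at 193.3 and 258.1 CPM in AngII. Adipocyte marker sums were 6165 to 9652 over all libraries. AngII+3W replicate 1 stood apart, with a skeletal muscle marker sum of 2520 against 5.638 to 74.69 in the other 7 libraries, and its cardiac muscle marker sum was 6374 against 491.7 in AngII+3W replicate 2. Cardiac muscle marker sums also differed between the groups, at 5599 and 2487 in CTRL, 1511 and 959.7 with AngII, and 253.9 and 85.11 at AngII+2W, although none of the 8 markers passed the FDR of 0.05 in any comparison. AngII+3W replicate 1 had the lowest CPM of all 8 libraries for every member except Tgfbr3. The part of these other cell types in the results was not tested.

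**Figure D1:**
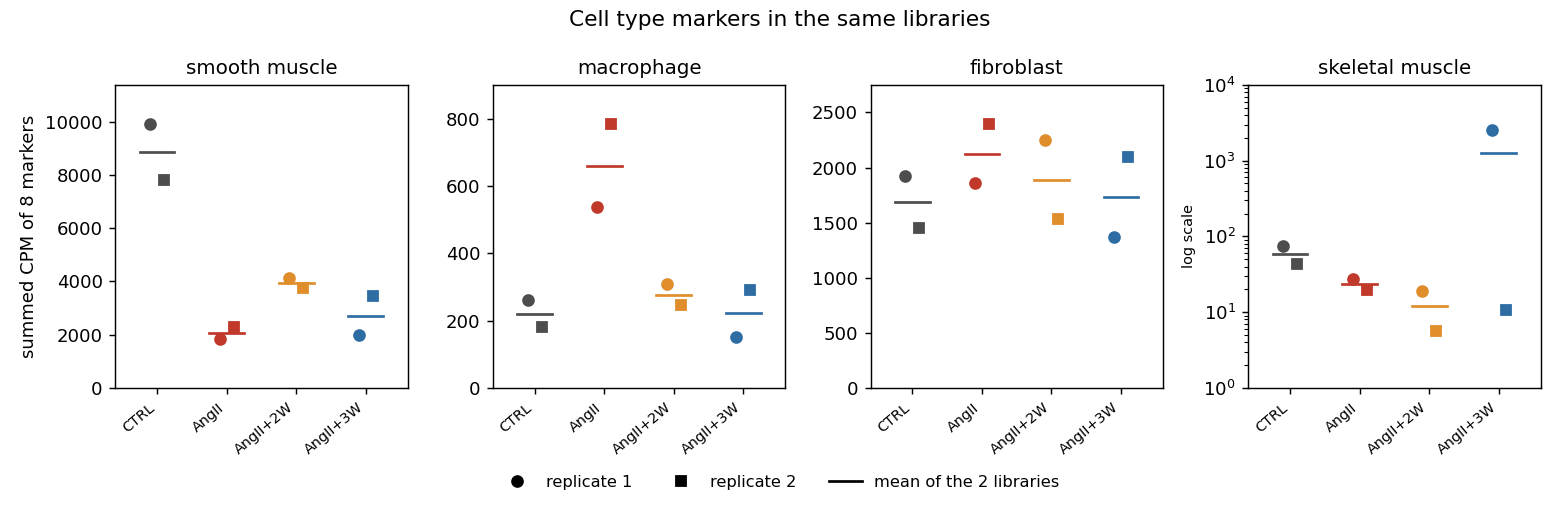
Summed CPM of 8 marker genes (y axis, linear except for skeletal muscle, which is on a log scale) in each library of the 4 groups (x axis) for smooth muscle, macrophage, fibroblast and skeletal muscle. Circles are replicate 1, squares are replicate 2 and lines are the mean of the 2 libraries. Smooth muscle sums were 7795 or more in CTRL and 4137 or less in the other 6 libraries, and 1 AngII+3W library reached 2520 for skeletal muscle.

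In GRCm38 the ligand genes lie at chr7:25687002-25705077 on the plus strand (Tgfb1), at chr1:186622792-186705989 on the minus strand (Tgfb2) and at chr12:86056745-86079041 on the minus strand (Tgfb3). The receptor genes lie at chr4:47353222-47414931 on the plus strand (Tgfbr1), chr9:116084293-116175360 on the minus strand (Tgfbr2) and chr5:107106570-107289629 on the minus strand (Tgfbr3). The Ltbp genes lie at chr17:75005568-75392512 on the plus strand (Ltbp1), chr12:84783212-84876532 on the minus strand (Ltbp2), chr19:5740904-5758532 on the plus strand (Ltbp3) and chr7:27305136-27337692 on the minus strand (Ltbp4). All 10 are protein-coding. Tgfb3 overlaps Ttll5 on the opposite strand, and a pseudogene, Gm6276, lies within Ltbp1. Values of Tgfb3 and Ltbp1 are less certain to that extent, since the handling of strand in counting is not given in the sources used here.

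To set the levels of different genes side by side, CPM was divided by the total exon length of each gene in kilobases. On this scale the binding proteins led in CTRL, with 87.7 ± 8.72 CPM per kilobase for Ltbp4 (SD, n = 2, as for the other values here), 44.8 ± 9.51 for Ltbp1 and 33.5 ± 5.23 for Ltbp3. The receptors followed with 33.3 ± 0.908 CPM per kilobase for Tgfbr3 and 23.9 ± 0.259 for Tgfbr2, and Tgfb3 had 22.7 ± 6.28. Ltbp2 had 15.1 ± 0.225, Tgfbr1 13.6 ± 5.46, Tgfb2 9.69 ± 3.65 and Tgfb1 6.19 ± 0.712 CPM per kilobase. Tgfb1, the ligand best known in fibrosis, thus had the lowest value of the 10, and Tgfb3 the highest of the ligands. The CTRL libraries of 4 neighbouring pairs in this order overlapped, namely Ltbp3 and Tgfbr3, Tgfbr2 and Tgfb3, Ltbp2 and Tgfbr1, and Tgfbr1 and Tgfb2. Dividing by the longest transcript exchanged Tgfb1 and Tgfb2 and left the other places as they were. In AngII the order was different in the middle. Ltbp4 still led with 48.2 ± 8.80 CPM per kilobase. Ltbp1 was at 17.9 ± 4.20, below Tgfbr3 (34.9 ± 1.09), Ltbp3 (34.2 ± 0.873), Tgfbr2 (34.0 ± 3.02), Tgfb3 (31.1 ± 0.188) and Ltbp2 (23.8 ± 1.92). Tgfb1 with 8.61 ± 1.62 was above Tgfb2 with 4.18 ± 0.637. This order depended in part on the length used. Divided by the longest transcript, Ltbp1 (28.7 ± 6.73) overlapped Ltbp2 (28.8 ± 2.32), and Ltbp3 (54.1 ± 1.38) was above Tgfbr3 (37.5 ± 1.17).

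None of the 10 genes passed an FDR of 0.05 in any of the 6 comparisons between groups (edgeR quasi-likelihood test, adjusted over all 17182 genes). The largest differences at the end of the infusion were lower Ltbp1 and Tgfb2, which stood at 0.400 and 0.432 of CTRL and had an FDR of 0.0569 and 0.0666. Over all genes tested, 5.10% passed in AngII vs CTRL. The share was 0% in AngII+2W vs CTRL, and in AngII+3W vs CTRL it was 0.285%, of which 0.268% were lower. At the wider FDR of 0.1, 2 of the 10 passed in AngII vs CTRL, beside 9.73% of all genes. At an unadjusted p below 0.05, 3 of the 10 were higher and 3 lower in AngII, beside 10.9% and 9.29% of all genes, while 1 was lower in AngII+2W and 3 were lower in AngII+3W, beside 6.18% and 7.18%. The CTRL and AngII libraries did not overlap for 8 of the 10 genes, beside 49.2% of all genes. With DESeq2, 4 of the 10 passed in AngII vs CTRL, 0 in AngII+2W vs CTRL and 2 in AngII+3W vs CTRL, beside 1588, 373 and 585 of all genes. Where leaving out a library leaves a group with 1, that library is assumed to vary like the other groups, which then give the spread. The 3 comparisons share the same CTRL libraries, and an exact permutation test of a single gene in 2 libraries against 2 cannot give a two-sided p below 0.33.

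**Figure D2:**
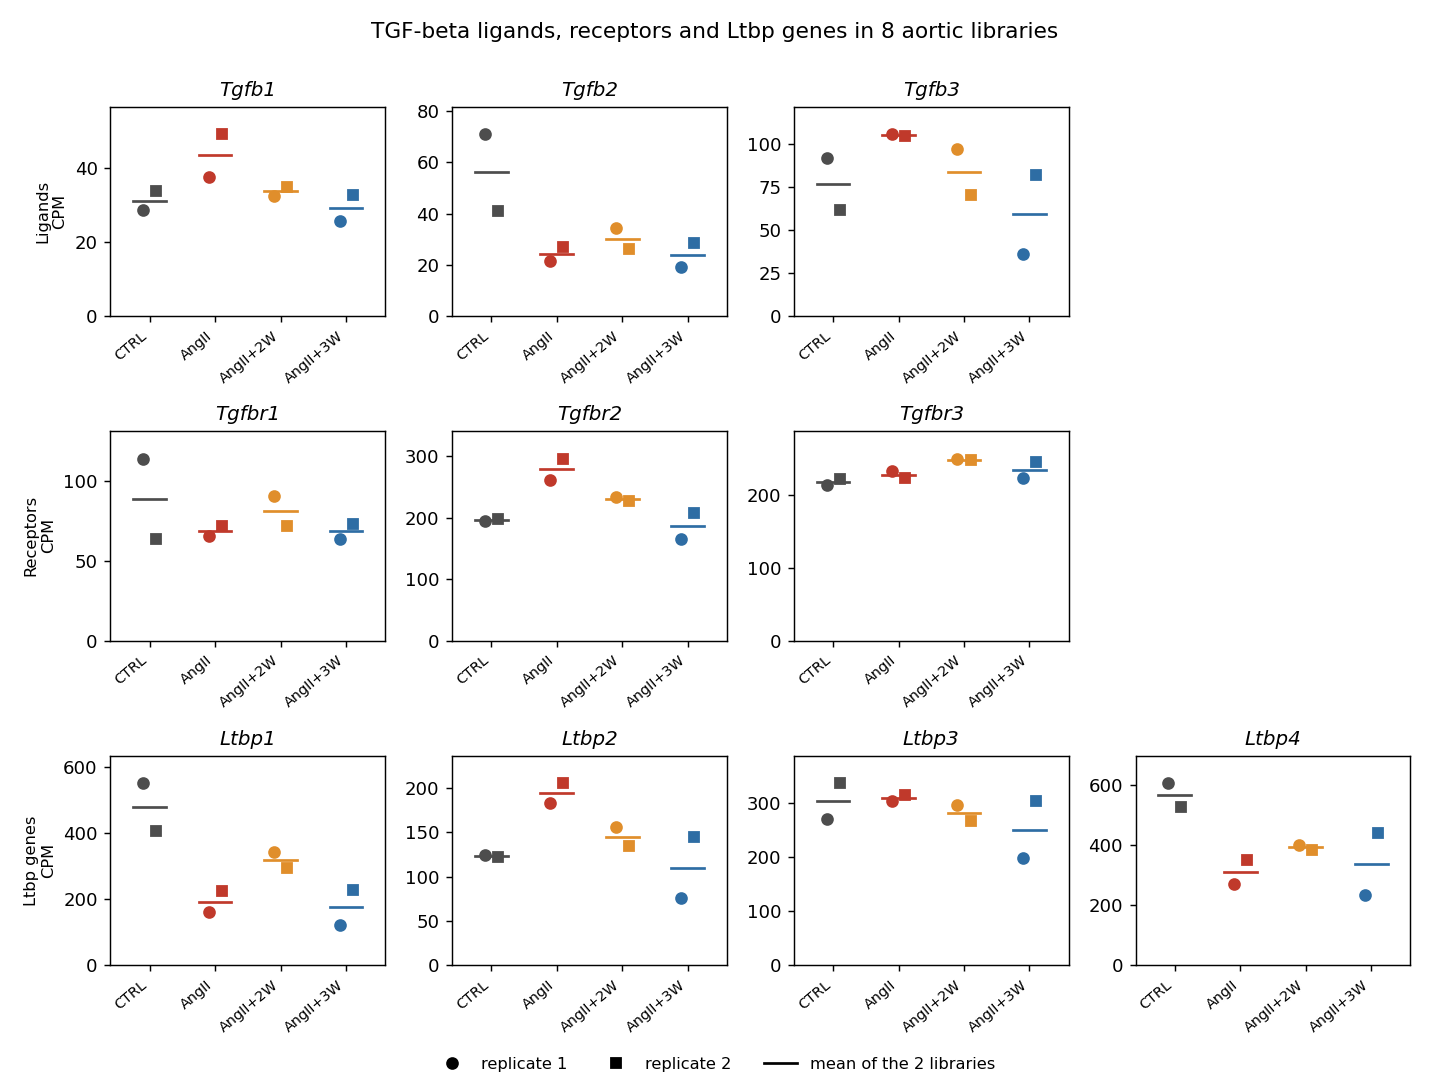
CPM (y axis, each panel from 0) of the 10 genes in each library of the 4 groups (x axis), with ligands in the top row, receptors in the middle and Ltbp genes at the bottom. Circles are replicate 1, squares are replicate 2 and lines are the mean of the 2 libraries. Tgfb2, Ltbp1 and Ltbp4 were highest in the CTRL libraries, while Tgfb1, Tgfb3, Tgfbr2 and Ltbp2 were highest in the AngII libraries.

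Among the ligands, Tgfb2 had the largest difference. Tgfb2 was at 71.0 and 41.2 CPM in CTRL replicates 1 and 2, at 21.6 and 26.8 CPM in AngII, at 34.5 and 26.0 CPM in AngII+2W, and at 19.0 and 28.7 CPM in AngII+3W. All 6 libraries of infused mice lay below both CTRL libraries, and the CTRL libraries themselves differed 1.73-fold. The log2 fold change against CTRL was -1.21 (SE 0.304, FDR 0.0666) in AngII, -0.89 (SE 0.301, FDR 0.357) in AngII+2W and -1.23 (SE 0.304, FDR 0.148) in AngII+3W. Without CTRL replicate 1, the log2 fold change of Tgfb2 was at its smallest, -0.77 with AngII, -0.43 at AngII+2W and -0.79 at AngII+3W. In AngII vs CTRL the FDR was 0.0344 without AngII+3W replicate 1 and 0.0343 without AngII+3W replicate 2, and with the other 6 libraries left out in turn it did not pass and reached 0.294 without AngII replicate 1.

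Tgfb1 was at 28.7 and 33.7 CPM in CTRL, at 37.6 and 49.2 CPM in AngII, at 32.5 and 34.9 CPM in AngII+2W, and at 25.6 and 32.7 CPM in AngII+3W. Both AngII libraries were above the other 6, with a log2 fold change of 0.48 (SE 0.180, FDR 0.187) against CTRL. After the infusion Tgfb1 overlapped CTRL, with log2 fold changes of 0.11 and -0.10 in AngII+2W and AngII+3W. Tgfb3 was at 91.9 and 61.9 CPM in CTRL, at 105.7 and 104.8 CPM in AngII, at 96.9 and 70.2 CPM in AngII+2W, and at 36.2 and 82.2 CPM in AngII+3W. Its AngII libraries agreed within 1.01-fold and were the highest of the 8, but its log2 fold change of 0.45 had an SE of 0.365 (FDR 0.558), and its AngII+3W libraries differed 2.27-fold.

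Of the receptors, Tgfbr2, the receptor that binds the ligand, was at 194.3 and 197.3 CPM in CTRL, at 260.9 and 295.9 CPM in AngII, at 233.3 and 227.3 CPM in AngII+2W, and at 165.1 and 207.8 CPM in AngII+3W. Both AngII libraries were above all others, and those of AngII+2W came next. The log2 fold change of Tgfbr2 was 0.51 (SE 0.150, FDR 0.103) in AngII, 0.23 (SE 0.150, FDR 0.640) in AngII+2W and -0.07 (SE 0.150, FDR 0.889) in AngII+3W. With DESeq2 the difference of Tgfbr2 in AngII had an FDR of 0.0352.

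Tgfbr1, the signalling kinase of the pair, was at 114.2 and 63.8 CPM in CTRL, at 65.7 and 72.2 CPM in AngII, at 90.6 and 72.0 CPM in AngII+2W, and at 63.8 and 73.2 CPM in AngII+3W. Its CTRL libraries spanned the values of nearly all others, and its log2 fold changes against CTRL, -0.37, -0.13 and -0.38, were all within 1.5 SE of 0. Tgfbr3 was the steadiest of the 10, at 213.8 and 222.2 CPM in CTRL, at 233.6 and 223.5 CPM in AngII, at 250.7 and 248.1 CPM in AngII+2W, and at 224.6 and 245.6 CPM in AngII+3W. Every infused library was above both CTRL libraries for Tgfbr3, by log2 fold changes of 0.07, 0.19 and 0.11 in AngII, AngII+2W and AngII+3W with an SE of 0.122, and the FDR was 0.633 or more.

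Ltbp1, which carries latent TGF-beta into the matrix, was the member with the smallest FDR. Ltbp1 was at 550.8 and 407.0 CPM in CTRL, at 159.7 and 223.2 CPM in AngII, at 343 and 293.7 CPM in AngII+2W, and at 122.7 and 227.7 CPM in AngII+3W. The groups CTRL, AngII+2W and AngII did not overlap and stood in that order, and the AngII+3W libraries lay below AngII+2W and around those of AngII. The log2 fold change against CTRL was -1.32 (SE 0.314, FDR 0.0569) in AngII, -0.59 (SE 0.310, FDR 0.561) in AngII+2W and -1.45 (SE 0.315, FDR 0.111) in AngII+3W. Leaving out either AngII+3W library brought the FDR of Ltbp1 in AngII vs CTRL to 0.0134, while with the other 6 left out in turn it did not pass and reached 0.277 without AngII replicate 1. In AngII+3W vs CTRL the log2 fold change of Ltbp1 was -2.02 (FDR 0.0178) with AngII+3W replicate 1 alone, the library with the skeletal muscle sum of 2520, and -1.08 (FDR 0.205) with replicate 2 alone.

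Ltbp4, a binding protein of the latent complex that also takes part in elastic fibre assembly, was at 606.8 and 527.1 CPM in CTRL, at 271.4 and 351.8 CPM in AngII, at 401.3 and 384.4 CPM in AngII+2W, and at 235.0 and 439.7 CPM in AngII+3W. All infused libraries were below both CTRL libraries, with log2 fold changes of -0.86 (SE 0.284, FDR 0.136), -0.53 (SE 0.283, FDR 0.570) and -0.75 (SE 0.284, FDR 0.330). Its AngII+3W libraries differed 1.87-fold, and the log2 fold change against CTRL was -1.32 (FDR 0.0272) with replicate 1 alone and -0.37 (FDR 0.620) with replicate 2 alone. In AngII vs CTRL the FDR of Ltbp4 was 0.0243 without AngII+3W replicate 1 and 0.0240 without AngII+3W replicate 2, and up to 0.503, without AngII replicate 1, with the other libraries left out in turn.

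Ltbp2 had a difference of the opposite sign. It was at 124.5 and 121.9 CPM in CTRL, at 183.6 and 205.8 CPM in AngII, at 155.7 and 134.5 CPM in AngII+2W, and at 76.0 and 144.4 CPM in AngII+3W. Both AngII libraries were the highest of the 8, with a log2 fold change of 0.66 (SE 0.268, FDR 0.223), and the FDR was 0.0298 without AngII+3W replicate 1 and 0.0296 without AngII+3W replicate 2, and up to 0.573, without AngII replicate 2, with the other libraries left out in turn. Ltbp3 was at 270.0 and 337.1 CPM in CTRL, at 304.3 and 316 CPM in AngII, at 296.1 and 267.5 CPM in AngII+2W, and at 198.5 and 304 CPM in AngII+3W. For Ltbp3 the CTRL libraries enclosed those of AngII, and its log2 fold change in AngII was 0.03 with an SE of 0.215.

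**Figure D3:**
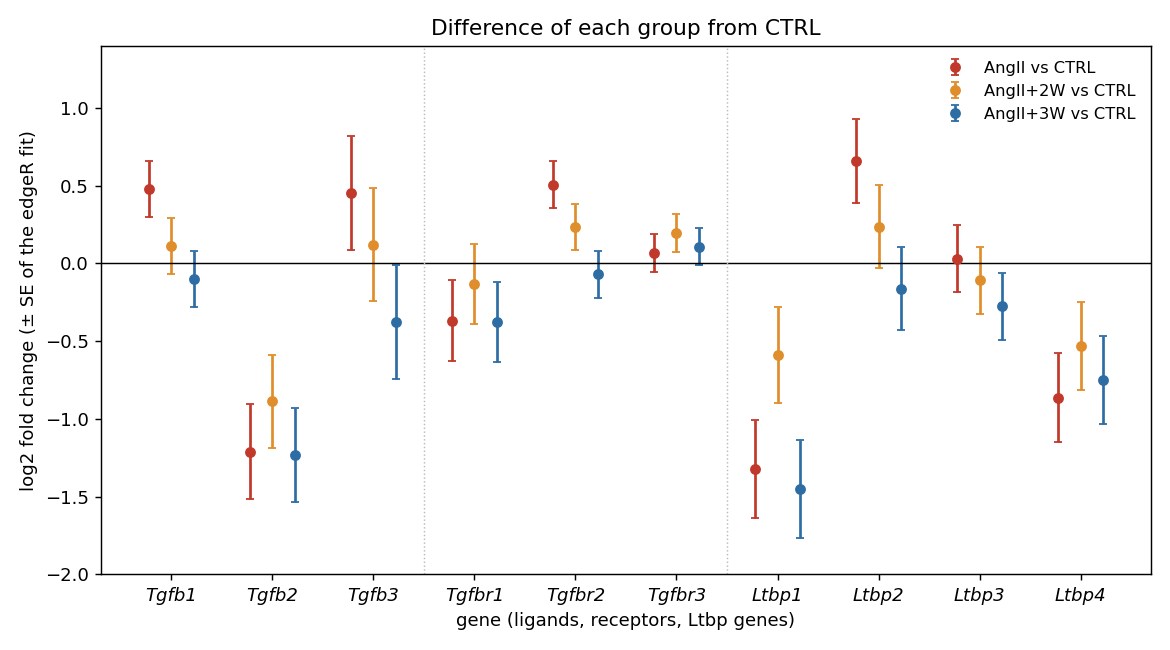
Log2 fold change against CTRL (y axis) of each gene (x axis) in AngII, AngII+2W and AngII+3W, with bars for the SE of the edgeR fit and dotted lines between ligands, receptors and Ltbp genes. Tgfb2, Ltbp1 and Ltbp4 lay below 0 in all 3 comparisons, which share the CTRL libraries, and no point passed an FDR of 0.05.

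Tgfb2, Ltbp1 and Ltbp4, like the smooth muscle sum, were highest in the CTRL libraries. In all 4 groups the library with the higher smooth muscle sum was also the one with more Tgfb2, Ltbp1 and Ltbp4. The same library of each group also had more Tgfbr1 and Ltbp2 and the higher macrophage and fibroblast sums. This order within groups was thus not particular to smooth muscle or to these genes. Ordered by Ltbp1, the 8 libraries stood as they did by the smooth muscle sum, except that the lowest pair, AngII replicate 1 and AngII+3W replicate 1, changed places. The order by Ltbp4 and Tgfb2 departed further. Ltbp4 in AngII+3W replicate 2 (439.7 CPM) was above both AngII+2W libraries (401.3 and 384.4 CPM). Tgfb2 in AngII+2W replicate 2 (26.0 CPM) was below AngII+3W replicate 2 (28.7 CPM) and AngII replicate 2 (26.8 CPM). The CPM of Ltbp1 was 5.57% and 5.22% of the smooth muscle sum in CTRL, 8.61% and 9.79% with AngII, 8.28% and 7.84% at AngII+2W, and 6.23% and 6.58% at AngII+3W. For Ltbp4 this share was 6.13% and 6.76% in CTRL and 14.6% and 15.4% in AngII. It was 9.7% and 10.3% at AngII+2W and 11.9% and 12.7% at AngII+3W. For Tgfb2 the share was 0.718% and 0.528% in CTRL and 1.16% and 1.18% in AngII. At AngII+2W it was 0.835% and 0.695%, which overlapped CTRL, and at AngII+3W 0.966% and 0.829%. Relative to these markers, chosen for this after their values were seen, all 3 genes were thus higher in AngII than in CTRL, while in CPM they were lower. In bulk tissue, fewer cells of a type and less RNA per cell cannot be told apart. For Tgfb1, Tgfb3, Tgfbr2 and Ltbp2, as for the macrophage markers, both AngII libraries were the highest. The smooth muscle sum was instead highest in CTRL. AngII+3W replicate 1 was the lowest for these genes and the macrophage sum, but also for every other member except Tgfbr3. The part of these cell types was not tested.

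The promoters of Tgfb2 and Ltbp1 are shown because these genes had the smallest FDR of the ligands and of the Ltbp genes, a choice made after their values were seen. Each is the 250 bases before a RefSeq transcription start in GRCm38.p6, read 5′ to 3′ on the strand of the gene, with the Smad-binding core CAGAC, or its reverse complement GTCTG, in capitals.
Tgfb2, chr1:186705990-186706239, minus strand: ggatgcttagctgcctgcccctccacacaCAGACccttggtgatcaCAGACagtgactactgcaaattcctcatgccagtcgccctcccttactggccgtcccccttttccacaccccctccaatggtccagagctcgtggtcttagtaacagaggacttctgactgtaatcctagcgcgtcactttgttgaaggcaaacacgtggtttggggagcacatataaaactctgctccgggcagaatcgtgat
Ltbp1, upstream start, chr17:75005279-75005528, plus strand: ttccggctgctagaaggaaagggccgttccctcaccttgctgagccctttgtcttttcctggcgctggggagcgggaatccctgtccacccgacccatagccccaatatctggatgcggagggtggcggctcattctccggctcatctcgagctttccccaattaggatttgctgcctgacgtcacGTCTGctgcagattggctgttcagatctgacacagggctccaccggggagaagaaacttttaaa
Ltbp1, downstream start, chr17:75178531-75178780, plus strand: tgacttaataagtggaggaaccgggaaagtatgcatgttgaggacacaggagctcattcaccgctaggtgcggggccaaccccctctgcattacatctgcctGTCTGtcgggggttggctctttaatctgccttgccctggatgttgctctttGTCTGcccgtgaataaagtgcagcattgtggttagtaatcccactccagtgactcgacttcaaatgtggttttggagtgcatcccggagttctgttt
The Tgfb2 window held CAGAC at 2 places, 221 and 204 bases before the start, a TATAAA box 31 bases before it and a CACGTG E-box 51 bases before it. The upstream Ltbp1 window held CAGAC at 1 place and the downstream one at 2 places. In the same number of bases before all 32851 RefSeq starts searched on both strands, 42.2% held CAGAC, 12.4% TATAAA and 6.02% CACGTG. The GC box GGGCGG, present in 32.7% of all windows, was found at 5 places before Tgfb1, at 3 to 7 places in the windows of Ltbp4, and at none in the windows of Tgfb2 and Ltbp1. A table of RefSeq promoters held windows for 8 of the 10 genes, without Tgfb3 and Tgfbr3. Such matches are letters in a window and not measured binding sites.

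Ratios of counts within a library compare members without the scaling between libraries, and those given here were chosen after the values were seen. Tgfb2 outnumbered Tgfb1 by 2.48 and 1.22 in the CTRL libraries. The ratio of Tgfb2 to Tgfb1 was 0.574 and 0.545 with AngII, 1.06 and 0.747 at AngII+2W, and 0.744 and 0.878 at AngII+3W. The ratio was thus lower in all infused libraries than in CTRL, and lowest in AngII. The ratio of Tgfb2 to Tgfb3 was 0.773 and 0.665 in CTRL, 0.204 and 0.256 with AngII, 0.356 and 0.371 at AngII+2W, and 0.525 and 0.349 at AngII+3W. The ratio of Tgfb3 to Tgfb1 overlapped between all groups, at 1.42 to 3.21. The ratio of Ltbp1 to Ltbp2, 4.42 and 3.34 in CTRL, was 0.870 and 1.08 with AngII, 2.20 and 2.18 at AngII+2W, and 1.61 and 1.58 at AngII+3W. The 4 groups did not overlap for the ratio of Ltbp1 to Ltbp2, and in AngII+3W its replicates were close although Ltbp1 and Ltbp2 differed 1.86-fold and 1.90-fold between these libraries. The ratio of Ltbp1 to Ltbp4 was 0.908 and 0.772 in CTRL, 0.588 and 0.634 with AngII, 0.854 and 0.764 at AngII+2W, and 0.522 and 0.518 at AngII+3W. The ratio of the kinase Tgfbr1 to Tgfbr2 was 0.588 and 0.323 in CTRL, 0.252 and 0.244 with AngII, 0.388 and 0.317 at AngII+2W, and 0.386 and 0.352 at AngII+3W, so that AngII lay below all other libraries.

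**Figure D4:**
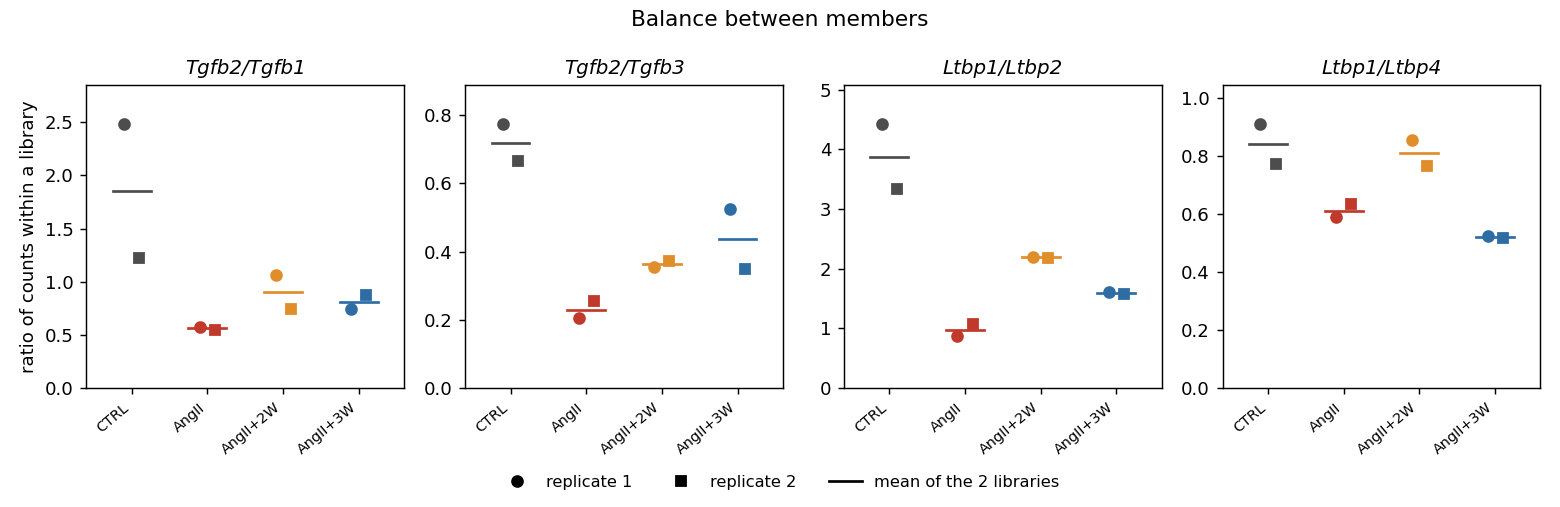
Ratio of the counts of 2 genes within a library (y axis, from 0) in the 4 groups (x axis) for Tgfb2 to Tgfb1, Tgfb2 to Tgfb3, Ltbp1 to Ltbp2 and Ltbp1 to Ltbp4. Circles are replicate 1, squares are replicate 2 and lines are the mean of the 2 libraries. The ratios of Tgfb2 to the other ligands and of Ltbp1 to Ltbp2 were lowest in AngII and highest in CTRL.

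The groups of infused mice were also compared with each other. Between AngII+3W and AngII, Tgfbr2 had a log2 fold change of -0.58 (SE 0.151, FDR 0.108), Tgfb1 -0.58 (SE 0.181, FDR 0.159), Ltbp2 -0.82 (SE 0.269, FDR 0.172) and Tgfb3 -0.83 (SE 0.368, FDR 0.293). For Tgfb2, Ltbp1 and Ltbp4 the AngII+3W libraries overlapped those of AngII, with log2 fold changes of -0.02, -0.13 and 0.11. Among all genes, 1.61% passed the FDR of 0.05 in this comparison, 0.285% higher and 1.32% lower, and 0.163% passed in AngII+2W vs AngII. With AngII+3W replicate 1, whose skeletal muscle sum was 2520, as the only AngII+3W library, Ltbp2, Tgfb3 and Tgfbr2 passed in AngII+3W vs AngII, with an FDR of 0.0112, 0.0247 and 0.0377, beside 1005 of all genes. None of them passed with any other library left out, and the FDR reached 0.584, 0.647 and 0.518 without AngII replicate 2. Between AngII+2W and AngII, Ltbp1 had the largest log2 fold change, 0.73 (SE 0.311, FDR 0.323). Between AngII+3W and AngII+2W, where 0% of all genes passed (1518 genes had an unadjusted p below 0.05, and DESeq2 called 221), all 10 log2 fold changes were negative, from -0.09 for Tgfbr3 to -0.86 for Ltbp1 (FDR 0.473). With AngII+3W replicate 1 as the only AngII+3W library, Ltbp1 and Ltbp2 had an FDR of 0.0494 and 0.0354 in that comparison, beside 432 genes past the threshold. With AngII+3W replicate 2 alone they were at 0.848 and 0.997.

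The members fell into sets with a like course over the 8 libraries, given here as Pearson r of log2 CPM and only as a description, since the libraries form 4 groups and share their scaling. In the set of Ltbp1 r was 0.946 for Ltbp1 and Ltbp4, 0.932 for Tgfb2 and Ltbp1, and 0.916 for Tgfb2 and Ltbp4. In the set of Tgfbr2 r was 0.951 for Tgfbr2 and Ltbp2, 0.934 for Tgfb1 and Tgfbr2, 0.925 for Tgfb3 and Ltbp2, and 0.874 for Tgfb1 and Ltbp2. The lower values in that set were 0.803 for Tgfb3 and Tgfbr2 and 0.651 for Tgfb1 and Tgfb3. Across the sets r ranged from -0.182 for Tgfb1 and Tgfb2 to 0.356 for Tgfb3 and Ltbp1. Tgfbr1, placed in neither set, had an r of 0.792 with Tgfb2, so that the sets were not sharply bounded. Over all 17182 genes tested, the 3 most like Tgfb2 were Hspa1a (r = 0.989), Hspa1b (0.987) and Fam129a (0.987). Hspa1a and Hspa1b, heat shock genes that are near-identical copies and can share reads, were at 296.7 and 342.9 CPM in CTRL replicate 1, 66.2 and 66.9 CPM in CTRL replicate 2, and 33.6 CPM or less in all infused libraries. The genes most like Ltbp1 were Wfdc1 (r = 0.991), Mafk (0.990) and Tubb4a (0.987), and those most like Tgfbr2 were Hexa (0.989), Nsg1 (0.987) and Ctsb (0.984), of which Hexa and Ctsb encode lysosomal enzymes.

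The other genes of the pathway were described in 4 lists, 69 tested genes in all, by place in the pathway. In AngII vs CTRL, 3 of 21 activation and latent-complex partners rose and 1 fell, 0 of 10 co-receptors and receptor modulators rose and 1 fell, 0 of 15 Smads and their regulators rose and 3 fell, and 4 of 23 transcripts known to respond to TGF-beta rose and 2 fell. The background was 2.90% of all genes higher and 2.20% lower. The median log2 fold change was 0.08, -0.02, -0.04 and 0.65 in the 4 lists, beside -0.01 over all genes tested. These calls were sensitive to single libraries, and none of the 4 lists kept a call without CTRL replicate 1 or without AngII replicate 2.

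Of the partners, Fbn2, a fibrillin of elastic microfibrils that is typical of development, was at 1.51 and 1.36 CPM in CTRL, at 19.9 and 26.5 CPM in AngII, at 1.96 and 1.45 CPM in AngII+2W, and at 1.08 and 2.42 CPM in AngII+3W. Fbn2 rose by a log2 fold change of 4.01 (SE 0.373, FDR 0.0053), and the AngII libraries were the only ones clear of CTRL. Without CTRL replicate 1 its FDR was 0.0633. The matrix proteases Mmp2 and Mmp14, of which Mmp14 activates Mmp2, rose by 2.57 (FDR 0.0266) and 2.09 (FDR 0.030). The integrin subunit Itgb3 fell by 1.34 on the log2 scale (FDR 0.0312), from 99.1 and 103.6 CPM in CTRL to 32.1 and 47.9 CPM in AngII. Itgb3 stayed below both CTRL libraries, at 71.41 and 76.03 CPM in AngII+2W (FDR 0.577) and at 23.65 and 38.74 CPM in AngII+3W (FDR 0.0565). Fbn1, the main fibrillin that holds the latent complex, had a log2 fold change of 1.31 (FDR 0.0697) and Thbs1, an activator of latent TGF-beta, one of 1.34 (FDR 0.0747).

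On the receiving side, Scube3, a secreted protein that can bind Tgfbr2, fell by 2.97 on the log2 scale (SE 0.397, FDR 0.0120), from 303.0 and 248.3 CPM in CTRL to 30.5 and 39.8 CPM in AngII. Scube3 stayed below both CTRL libraries, at 97.65 and 103.6 CPM in AngII+2W (FDR 0.287) and at 32.95 and 82.68 CPM in AngII+3W (FDR 0.0657). Smad7 and Smad6, inhibitory Smads, fell by 0.99 (FDR 0.0334) and 0.83 (FDR 0.0479), and Pmepa1, a feedback inhibitor that TGF-beta itself induces, fell by 0.81 (FDR 0.0287). Smad7 was at 70.2 and 56.8 CPM in CTRL, at 27.2 and 36.6 CPM in AngII, at 38.3 and 40.5 CPM in AngII+2W, and at 29.8 and 38.4 CPM in AngII+3W, so that all infused libraries were below CTRL.

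The transcripts known to respond to TGF-beta split by direction. Those that rose were the matrix genes Col1a1 (log2 fold change 3.03, FDR 0.0322) and Col3a1 (2.83, FDR 0.0186), the protease inhibitor Timp1 (3.61, FDR 0.0116) and the matrix protein gene Cilp (2.38, FDR 0.0123). Col3a1 was at 1818 and 1246 CPM in CTRL and 8392 and 13400 CPM in AngII, and at 958.9 to 3143 CPM in the 4 libraries taken after the infusion. Id1, a transcription regulator that responds chiefly to bone morphogenetic proteins, fell by 0.88 (FDR 0.0375), and Tgfb1i1, a focal adhesion protein of smooth muscle, fell by 1.26 (FDR 0.0467). Tgfb1i1 was not among the 5 genes per list to be named and is given to complete the count. In the same AngII libraries macrophage marker sums were higher, smooth muscle sums lower and 2 of the 8 fibroblast markers higher, as given above, and their part in these changes was not tested.

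After the infusion, 1 gene of the lists passed an FDR of 0.05 against CTRL. In AngII+2W vs CTRL, 0 of the 69 genes passed, as did 0 of all genes, although 1838 of all genes had an unadjusted p below 0.05 and DESeq2 called 373. The single gene to pass in AngII+3W vs CTRL was Cdkn1a, a cell cycle inhibitor that TGF-beta can induce, which fell by 1.89 on the log2 scale (SE 0.258, FDR 0.0455). Cdkn1a was at 84.5 and 49.3 CPM in CTRL, at 57.5 and 56.4 CPM in AngII, at 66.8 and 51.2 CPM in AngII+2W, and at 19.2 and 16.8 CPM in AngII+3W, so that both AngII+3W libraries stood below the other 6. With 1 library left out at a time the call held in 2 of 8 cases, and the FDR was highest, 0.208, without CTRL replicate 1. Below the unadjusted p of 0.05, 23 of the 69 genes were lower and 1 higher in AngII+3W vs CTRL, beside 7.18% and 5.34% of all genes. In AngII+2W vs CTRL, 11 were lower and 6 higher, beside 6.18% and 4.52%. At the wider FDR of 0.1, 3 of the 69 passed in AngII+3W vs CTRL, beside 1.43% of all genes. The median log2 fold change of the 4 lists in AngII+3W was -0.56, -0.20, -0.04 and -0.26, beside 0.03 over all genes.

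**Figure D5:**
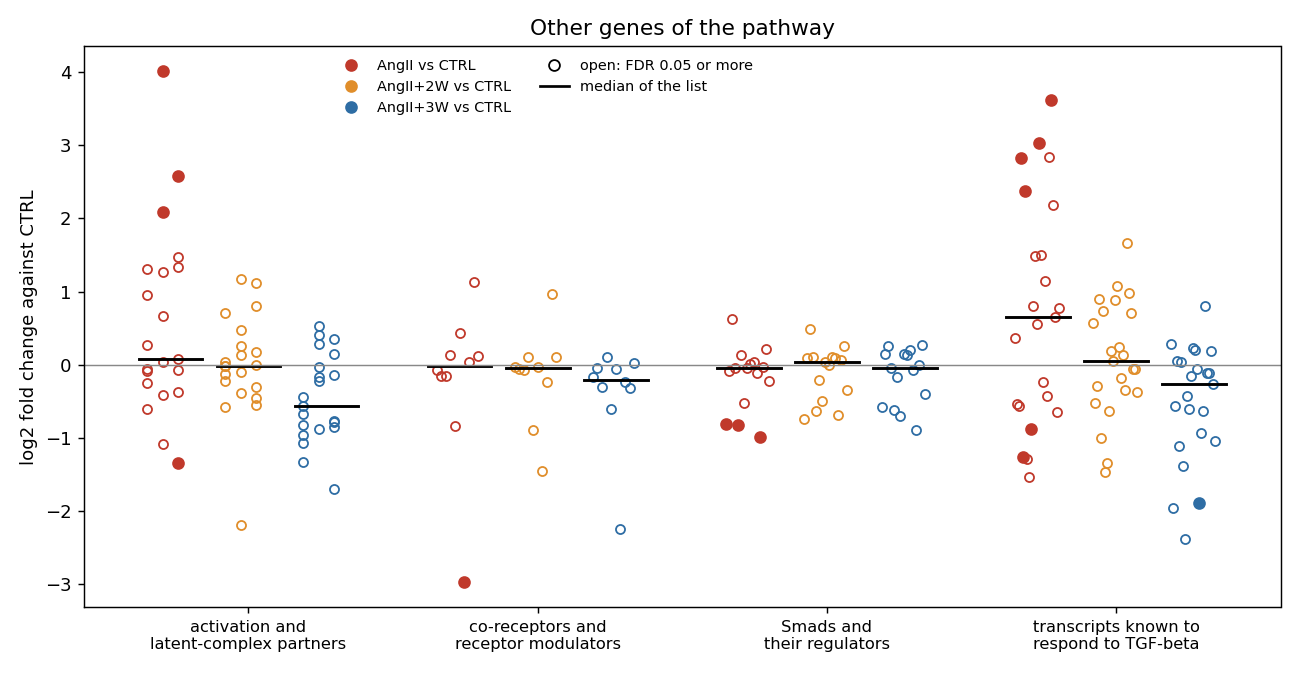
Log2 fold change against CTRL (y axis) of the 69 other genes of the pathway by list (x axis), with 1 point per gene in AngII, AngII+2W and AngII+3W. Filled points passed an FDR of 0.05 and black lines are medians. In AngII, 14 genes passed, 7 higher and 7 lower, in AngII+2W none and in AngII+3W Cdkn1a alone.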

How the data were processed

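RNA of a part of the aorta was measured in 8 libraries of 4 groups with 2 libraries each. The authors quantified reads with Salmon on the mouse transcriptome (GRCm38.p6) and deposited estimated counts per gene. These were taken as whole numbers, with any fraction dropped, and filtered with filterByExpr, which left 17182 genes. They were scaled by TMM and fitted in all 8 libraries together with edgeR 4.0.16 in R 4.3.3. The fit had 1 coefficient per group and 4 residual degrees of freedom. Each comparison used the quasi-likelihood F test with Benjamini-Hochberg adjustment over all genes tested. The SE was taken from the fold change and its F statistic. CPM were computed from the TMM-scaled totals. Libraries of pooled mice are treated as replicates, so that p-values measure the spread between pools. The SE comes from the same fit and includes this spread, and each SD is that of the 2 libraries of a group. Only the floor of 3 counts is limited to counting error.

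The 10 members, the 4 pathway lists, the markers and the rule for named genes were chosen with earlier results of these data known. The rule was all members, up to 5 genes per list by smallest p among those past an FDR of 0.05 in AngII vs CTRL, those past it after the infusion, and the 3 genes most like the leading ligand, receptor and Ltbp gene by Pearson r of log2 CPM. Gene models came from GENCODE and matched 98.9% of the IDs, and promoters came from RefSeq. Scripts were tested on simulated data. The time at which each CTRL pool was taken is not given in the labels. Alternatives were other scalings, filters and tests (DESeq2 1.42.0, limma 3.58.1), a replicate block and each library left out in turn.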

Additional observations from a re-analysis of the deposited data

Results flagged for a closer look

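None of the 10 members differed between the groups of infused mice past an FDR of 0.05, but genes of the pathway lists did, so that their difference from CTRL at the end of the infusion was not the same as 2 or 3 weeks later. This was tested as the contrast between these groups in the edgeR fit. Fbn2, the fibrillin of developing elastic tissue, had a log2 fold change of -3.76 in AngII+2W vs AngII (FDR 0.0290). This call held without either AngII+3W library and was lost with each of the other 6 left out in turn, with FDR values up to 0.401 without AngII+2W replicate 2.

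Of the lists, 4 of 21 activation and latent-complex partners and 5 of 23 transcripts known to respond to TGF-beta were lower in AngII+3W vs AngII and none was higher, beside 1.32% of all genes lower and 0.285% higher. The partners were Fbn2 with a log2 fold change of -3.73 (FDR 0.0145), Thbs1 with -2.13 (FDR 0.0417), Mmp14 with -2.25 (FDR 0.0436) and Fbn1 with -1.88 (FDR 0.0447). The responsive transcripts were Timp1 with -3.73 (FDR 0.0221), Cilp with -2.35 (FDR 0.0251), Postn with -1.81 (FDR 0.0280), Cdkn1a with -1.66 (FDR 0.0308) and Col3a1 with -2.78 (FDR 0.0383). Postn, a matrix protein of activated fibroblasts, was at 731.9 and 533.9 CPM in CTRL, at 1066 and 1092 CPM in AngII, at 555.8 and 420.3 CPM in AngII+2W, and at 243.3 and 373.1 CPM in AngII+3W. Col3a1 was at 8392 and 13400 CPM in AngII and at 958.9 and 2207 CPM in AngII+3W, beside 1818 and 1246 CPM in CTRL. For Cdkn1a the AngII libraries overlapped CTRL, unlike the other 8 genes, and the AngII+3W libraries were below both groups.

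All 9 calls of AngII+3W vs AngII were lost in a fit of these 4 libraries alone, with FDR values from 0.0958 to 0.184, and without AngII replicate 2, with FDR values from 0.108 to 0.283. Macrophage marker sums were 537.4 to 783.5 in AngII and 152.2 to 292.6 in AngII+3W, and the skeletal muscle sum of AngII+3W replicate 1 was 2520. Of 8 fibroblast markers 2 were lower in AngII+3W vs AngII (median log2 fold change -0.93), and of 7 tested Schwann cell and nerve markers 4 were higher (median 1.35). Their part in these differences was not tested.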

How the results depend on the processing

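With 2 pooled libraries per group, the calls varied between settings. The number of members past an FDR of 0.05 was 0 in all 6 comparisons. In AngII vs CTRL it became 4 with DESeq2, 4 in a fit without the AngII+3W group (added after seeing the data), 2 with the likelihood ratio test, with a filter of 1 count or with only the 2 groups, and 1 where every library had to reach 10 counts. It was 2 in AngII+3W vs CTRL with DESeq2 and with the likelihood ratio test, and in AngII+3W vs AngII 2 with DESeq2. With 1 library left out it ranged from 0 to 4 in AngII vs CTRL (4 without either AngII+3W library), 0 to 2 in AngII+3W vs CTRL, 0 to 3 in AngII+3W vs AngII and 0 to 2 in AngII+3W vs AngII+2W (the highest each time without AngII+3W replicate 2). The cause was not tested. The replicate block gave 0 members in all comparisons, and 870 genes against 877 in AngII vs CTRL, 4 against 49 in AngII+3W vs CTRL and 2 against 0 in AngII+3W vs AngII+2W. Replicates of the same number are other mice, and the correlations of their differences, -0.014 to 0.332 over 15159 genes, did not pair them.

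The lists are given in the order partners, co-receptors, Smads, responsive transcripts and all genes. In AngII vs CTRL the counts were 4, 1, 3, 6 and 877, against 9, 2, 3, 10 and 1588 with DESeq2, 8, 3, 3, 11 and 1711 with the likelihood ratio test, 9, 2, 3, 11 and 1559 without the AngII+3W group, 8, 2, 3, 12 and 1149 with only the 2 groups, and 3, 1, 0, 5 and 622 with library totals alone. Leaving out 1 library gave 0 to 8, 0 to 2, 0 to 3, 0 to 11 and 0 to 1504, lowest without AngII replicate 2 or CTRL replicate 1 and highest without either AngII+3W library. In AngII+2W vs CTRL all were 0, against 1, 1, 1, 1 and 373 with DESeq2, 0, 1, 1, 1 and 420 with the likelihood ratio test, 1, 1, 0, 1 and 267 without the AngII+3W group, 5 genes with a filter of 1 count, and up to 1, 1, 0, 1 and 275 with 1 library left out. The counts in AngII+3W vs CTRL were 0, 0, 0, 1 and 49, against 5, 1, 2, 5 and 585 with DESeq2, 3, 1, 1, 6 and 556 with the likelihood ratio test, 1, 1, 0, 2 and 200 with a filter of 1 count, 1, 1, 0, 1 and 119 with at least 10 counts, 0, 0, 0, 0 and 1 with library totals, 0, 0, 0, 0 and 44 with limma-voom, 0 throughout with only the 2 groups, and 0 to 6, 0 to 1, 0 to 2, 0 to 6 and 0 to 463 with 1 library left out. In AngII+2W vs AngII they were 1, 0, 0, 0 and 28, against 5, 1, 0, 5 and 685 with DESeq2, 6, 1, 0, 6 and 766 with the likelihood ratio test, 2, 1, 0, 6 and 305 without the AngII+3W group, 6, 1, 0, 7 and 884 with only the 2 groups, 1, 0, 0, 2 and 242 with a filter of 1 count, 18 genes with library totals, 15 with limma-voom, and 0 to 2, 0 to 1, 0, 0 to 6 and 0 to 262 with 1 library left out. The counts in AngII+3W vs AngII were 4, 0, 0, 5 and 276, against 10, 2, 0, 10 and 968 with DESeq2, 9, 1, 0, 12 and 1068 with the likelihood ratio test, 7, 1, 0, 9 and 522 with a filter of 1 count, 1, 0, 0, 5 and 179 with library totals, 0 throughout with only the 2 groups, 2 partners with the replicate block, and 0 to 12, 0 to 1, 0, 0 to 13 and 3 to 1005 with 1 library left out. Between AngII+3W and AngII+2W all were 0, against 4, 1, 0, 1 and 221 with DESeq2, 2, 1, 0, 1 and 273 with the likelihood ratio test, 11 genes with a filter of 1 count, and up to 6, 2, 0, 4 and 432 with 1 library left out.

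The log2 fold changes of the members kept their sign in every setting with all libraries, except Tgfbr3 in AngII+3W vs AngII, which was 0.04 and became -0.01 with library totals alone. Leaving out 1 library reversed some small differences. In AngII vs CTRL the range was -0.74 to 0.11 for Tgfbr1 and -0.12 to 0.19 for Ltbp3. In AngII+2W vs CTRL it was -0.14 to 0.44 for Tgfb3, -0.49 to 0.36 for Tgfbr1 and -0.25 to 0.0631 for Ltbp3. The ranges in AngII+3W vs CTRL were -0.34 to 0.0633 for Tgfb1, -1.14 to 0.0933 for Tgfb3, -0.75 to 0.10 for Tgfbr1, -0.30 to 0.0826 for Tgfbr2, -0.0112 to 0.17 for Tgfbr3 and -0.75 to 0.23 for Ltbp2. The ranges in AngII+3W vs AngII were -0.40 to 0.25 for Tgfb2, -0.16 to 0.0948 for Tgfbr1, -0.0737 to 0.11 for Tgfbr3, -0.69 to 0.26 for Ltbp1 and -0.46 to 0.50 for Ltbp4. Those in AngII+3W vs AngII+2W were -0.55 to 0.11 for Ltbp3 and -0.79 to 0.16 for Ltbp4. Tgfb2, Ltbp1 and Ltbp4 kept a negative sign against CTRL in all 3 comparisons with any library left out. The lowest count of a member was 354.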
